A study of Mus musculus with 3 samples.

Results

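Chrna9, Chrna10, Kcnn2, Kcnma1, Kcna10 and Atp2b2, the genes of the efferent acetylcholine receptor of hair cells, of the potassium channels beside it and of the calcium pump of the hair bundle, were followed by their symbols. They are 6 of the 31053 genes in the count tables of mouse cochlear organoids. Each gene was read in 2 classes of cells of each library: cells with at least 2 unique molecular identifiers (UMIs, 1 per captured transcript molecule) of Pou4f3, a transcription factor of hair cells, and all other cells. There were 167 Pou4f3-positive and 26065 other cells in the expansion library, 329 and 12871 on day 5 of differentiation, and 1538 and 4573 on day 25.

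The organoids were grown in 3D culture from Lgr5+ progenitor cells of C57BL/6 mice, and each of the 3 stages was 1 library of single living cells sorted with DAPI and made with 10x Genomics 3' v3 chemistry. The expansion library came from passage 2 at day 8, in medium with EGF, bFGF, IGF, CHIR99021, Y-27632 and LPA. The day 5 and day 25 libraries came from organoids that had been moved from there to medium with bFGF, BDNF, Shh, A83-01 and RA, which held LY4115775 too for the initial 5 days only. With 1 library per stage, the difference between stages and that between libraries cannot be told apart, no test can be made, and all intervals below are 95% counting intervals: exact Poisson for levels, conditional binomial for ratios and Clopper-Pearson for shares. For a share of 0, the limit given is instead that of 3 cells of the total.

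In the cochlea, efferent neurons of the brainstem release acetylcholine onto hair cells. The receptor is built of the alpha9 subunit (Chrna9) and the alpha10 subunit (Chrna10), lets in calcium, and that calcium opens the small-conductance potassium channel SK2 (Kcnn2), so the cell is hyperpolarized. The large-conductance BK channel (Kcnma1) carries a fast outward current that hair cells acquire as they mature, Kcna10 is a voltage-gated potassium channel subunit known from hair cells, and PMCA2 (Atp2b2) pumps calcium out of the stereocilia; its loss makes mice deaf.

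The genes lie on separate chromosomes. In GRCm38 (GENCODE vM21), Chrna9 (ENSMUSG00000029205) spans chr5:65934921-65977326 on the plus strand and Chrna10 (ENSMUSG00000066279) spans chr7:102111266-102116828 on the minus strand. Kcnma1 (ENSMUSG00000063142) lies at chr14:23289431-24014491 on the minus strand. Kcna10 (ENSMUSG00000042861) lies at chr3:107183056-107195721 on the plus strand and Atp2b2 (ENSMUSG00000030302) at chr6:113743831-114042613 on the minus strand.

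The promoters of the receptor's subunit genes are shown because both subunits enter 1 receptor while their levels took different courses (below). The sequences are from RefSeq, build GRCm38.p6, and end at the base before the annotated start for Chrna9 (chr5:65966874-65967123, plus strand, inside the gene's span in GENCODE and outside its exons). For Chrna10 (chr7:102116829-102116963, minus strand) the 115 bases next to the start, which GENCODE counts as exon, are left out. Capitals mark AAATCA, the core of the motif of Gfi1, and CAGCTG, an E-box.
Chrna9: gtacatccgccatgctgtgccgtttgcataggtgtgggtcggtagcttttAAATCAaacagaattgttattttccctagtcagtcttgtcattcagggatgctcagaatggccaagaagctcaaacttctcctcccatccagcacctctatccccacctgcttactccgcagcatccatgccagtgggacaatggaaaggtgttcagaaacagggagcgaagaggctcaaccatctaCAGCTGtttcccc
Chrna10: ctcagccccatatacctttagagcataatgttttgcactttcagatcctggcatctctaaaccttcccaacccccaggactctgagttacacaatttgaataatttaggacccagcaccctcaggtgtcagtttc

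A few short motifs were searched on both strands in the 250 bases before each start, and their frequency was taken over the 32851 promoters of the RefSeq table. The E-box CAGCTG stands in 13.0% of them and the related E-box CAGATG in 14.4%. The homeodomain core TAATTA stands in 4.84%, and the Gfi1 core AAATCA in 12.4%. The Chrna9 window holds AAATCA 200 bases and CAGCTG 13 bases before the start, and 1 of the Atp2b2 promoters holds AAATCA 114 bases before its start. The windows of Chrna10, Kcna10 and Kcnma1 hold none of these letters, and Kcnn2 was not analysed for sequence here. GENCODE counts all 250 bases of the Kcnma1 window and 87 bases of the Kcna10 window as exon. These matches describe the letters and are not binding sites.

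The Pou4f3-positive cells were checked against other hair cell markers. Of 14 hair cell genes that were not used to choose them (Myo7a, Otof, Gfi1 and others), 12, 13 and 13 reached 20 CPM (UMIs of a gene per 1000000 UMIs of the summed class) in expansion, on day 5 and on day 25, and the list summed to 4305, 18641 and 15353 CPM, against 125, 392 and 558 CPM in other cells. Chat and Slc18a3, defining genes of the cholinergic efferent neurons themselves, were at 0 UMIs in Pou4f3-positive cells of all 3 libraries, and with Slc5a7 they summed to 0, 0.465 and 0.331 CPM. A list of 9 neuronal genes summed to 188, 487 and 1172 CPM in Pou4f3-positive cells, against 4.85, 59.6 and 53.1 CPM in other cells. Of these 9 genes, 3, 3 and 4 reached 20 CPM in Pou4f3-positive cells. The summed level there came mostly from Nefm and Nefl. Syt1 stood at 23.5, 68.6 and 98.1 CPM and Snap25 at 16.9, 10.2 and 63.9 CPM, while Tubb3 and Elavl4 were at or below 3.62 CPM. The part of neuronal RNA in the results below was not tested. A list of 3 genes of vestibular hair cells (Anxa4, Mapt and Spp1) summed to 477, 335 and 4304 CPM in Pou4f3-positive cells. In other cells the sums were 19.2, 309 and 280 CPM. In Pou4f3-positive cells Anxa4 had 473, 321 and 118 CPM and Spp1 1.21, 13.5 and 4093 CPM. Whether some of these cells are like vestibular hair cells was not tested.

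Depth and mitochondrial RNA varied within the Pou4f3-positive cells. They had median depths of 8129, 8884 and 9636.5 UMIs, against 4719, 5828 and 8273 in other cells. Profiles with at most 4% mitochondrial UMIs numbered 4, 149 and 590 of them at the 3 stages. These profiles were shallow, with medians of 2836 UMIs on day 5 and 4450.5 on day 25, against 15245.5 and 12598 in the Pou4f3-positive cells over 4%. The 3 libraries shared 22 to 133 cell barcodes per pair, at most 0.920% of the smaller library.

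The receptor's subunits stood far higher in Pou4f3-positive than in other cells at every stage. Chrna9 stood at 12.7 CPM (interval 7.84 to 19.4) in expansion, 15.8 CPM (12.3 to 20.0) on day 5 and 118 CPM (113 to 123) on day 25 in Pou4f3-positive cells. In other cells it stood at 0.0534, 0.125 and 1.47 CPM. The expansion and day 5 intervals of the Pou4f3-positive cells overlap, and the day 25 interval lies above both. Chrna10 stood at 63.4 CPM (51.8 to 76.7), 312 CPM (295 to 329) and 216 CPM (209 to 222) in Pou4f3-positive cells, against 0.299, 1.95 and 3.59 CPM in other cells. Chrna10 was thus highest on day 5, with no overlap of the intervals, and Chrna9 on day 25.

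As a ratio of Pou4f3-positive over other cells, Chrna10 was 212-fold higher in expansion (152 to 299), 160-fold higher on day 5 and 60.1-fold higher on day 25. The Chrna9 ratio was 237 in expansion (107 to 564), from 21 UMIs against 10, 126 on day 5 and 80.4 on day 25. The Pou4f3-positive cells were 0.637%, 2.49% and 25.2% of the cells, and they held 67.7%, 81.0% and 96.4% of all Chrna9 UMIs and 65.2%, 84.3% and 95.2% of all Chrna10 UMIs. Both subunits were thus concentrated in these cells at every stage. Of the 80 Chrna9 UMIs left in other cells on day 25, 54 lay in the 314 cells with 1 Pou4f3 UMI, as did 87 of 195 Chrna10 UMIs.

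**Figure D1:**
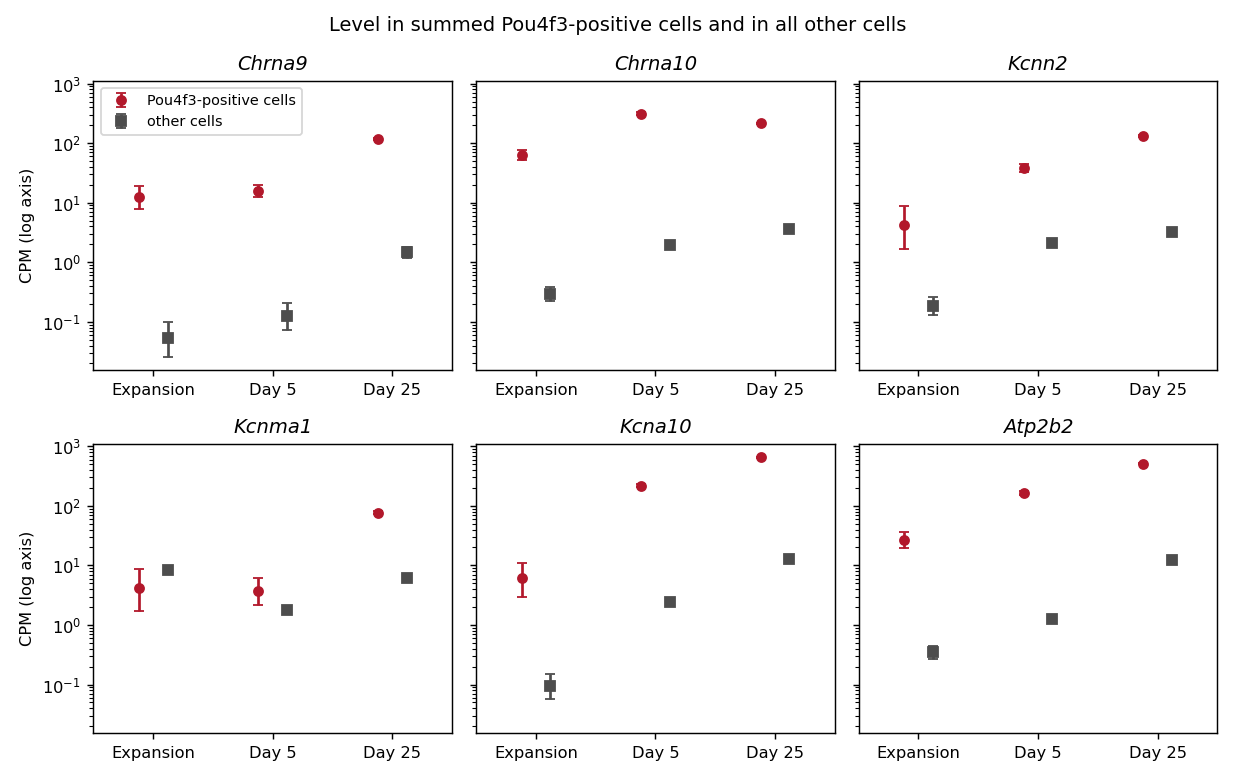
Level of each gene, in CPM on a log axis, in summed Pou4f3-positive cells (red circles, left) and in all other cells (grey squares, right) of the 3 libraries; bars are exact Poisson 95% intervals. Kcnma1 is the 1 gene that was not higher in Pou4f3-positive cells in expansion (4.22 against 8.32 CPM).

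The channels opened by calcium differed in their courses. Kcnn2 (ENSMUSG00000054477) lies at chr18:45268860-45686024 on the plus strand in GRCm38. Kcnn2 stood at 4.22 CPM (1.70 to 8.70), 37.9 CPM (32.3 to 44.2) and 131 CPM (126 to 136) in Pou4f3-positive cells, against 0.187, 2.12 and 3.24 CPM in other cells. Its intervals do not overlap between stages, so the SK2 gene was higher at each later stage. Kcnma1 stood at 4.22 CPM (1.70 to 8.70), 3.72 CPM (2.13 to 6.04) and 77.3 CPM (73.3 to 81.5) in Pou4f3-positive cells, against 8.32, 1.76 and 6.16 CPM in other cells. The BK gene was therefore low in Pou4f3-positive cells up to day 5, from 7 and 16 UMIs, and high on day 25, from 1400 UMIs.

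Kcnma1 was also the gene least tied to the Pou4f3-positive cells. Its ratio over other cells was 0.507 in expansion, with an interval of 0.204 to 1.05 that includes 1, then 2.11 on day 5 (1.18 to 3.50) and 12.5 on day 25 (11.1 to 14.2). The share of its UMIs that these cells held was 0.447%, 6.64% and 80.7% at the 3 stages. Mesenchymal cells, taken as cells with no Pou4f3 and no Epcam UMI and at least 5 UMIs of mesenchyme genes, had 10.2, 5.70 and 16.3 CPM of Kcnma1. Epithelial cells, with Epcam and no Pou4f3 UMI, had 8.38, 1.01 and 5.22 CPM.

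Kcnn2 was intermediate. The Pou4f3-positive cells held 16.7%, 37.6% and 93.1% of its UMIs, and the ratio over other cells was 22.6 in expansion from 7 UMIs, 17.9 on day 5 and 40.4 on day 25. Its level in other cells was 4.42%, 5.59% and 2.48% of that in Pou4f3-positive cells, above the matching shares of Chrna9 (0.421%, 0.794% and 1.24%) and Chrna10 (0.472%, 0.627% and 1.66%).

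Kcna10 showed the widest range between stages. It stood at 6.03 CPM (2.89 to 11.1) in expansion, from 10 UMIs, 219 CPM (206 to 234) on day 5 and 653 CPM (641 to 665) on day 25 in Pou4f3-positive cells. Other cells had 0.0961, 2.42 and 12.9 CPM. The ratio over other cells was 62.8, 90.9 and 50.4, so Kcna10 was concentrated in Pou4f3-positive cells at every stage while its level there differed 108-fold between day 25 and expansion.

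Atp2b2, the bundle calcium pump, stood at 27.2 CPM (19.8 to 36.3), 162 CPM (151 to 175) and 515 CPM (504 to 525) in Pou4f3-positive cells, against 0.352, 1.26 and 12.3 CPM in other cells. It was 77.1-fold, 129-fold and 41.7-fold higher in Pou4f3-positive cells, and its intervals do not overlap between stages. Day 25 epithelial cells without Pou4f3 had 10.1 CPM of Atp2b2 against 1.53 CPM in mesenchymal cells, which is 1.97% (1.79% to 2.15%) and 0.296% (0.0611% to 0.866%) of the Pou4f3-positive level. For Kcna10 the same shares were 0.851% (0.752% to 0.959%) and 0.934% (0.483% to 1.63%). The intervals of the Kcna10 shares overlap and those of the Atp2b2 shares do not, on 12 and 3 UMIs in mesenchymal cells, and the part of free RNA in these levels was not tested.

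A gene was called when CPM + 1 differed by at least 2-fold between groups, provided it had at least 20 CPM in either group and 10 UMIs in both together. In expansion 2 of the 6 genes reached that level and both (Chrna10 and Atp2b2) were higher in Pou4f3-positive than in other cells, beside 10.7% of the 6178 genes compared. There 660 genes were higher and 184 lower, a share of 78.2% higher among called genes, which was 65.2% with TMM scaling. On day 5 all 4 that reached the level (Chrna10, Kcnn2, Kcna10 and Atp2b2) were higher, beside 19.3% of 7066 genes, and on day 25 all 6 were higher, beside 19.7% of 7690 genes. A gene passes this level through the cells where it is high, so these counts describe the genes and add no support. No gene of the 6 was called lower, where 2.98%, 16.9% and 18.6% of genes were.

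Between stages, within Pou4f3-positive cells, the genes fell into different courses. For day 5 over expansion, all 4 genes that could be compared were higher, beside 16.5% of 6704 genes: Kcna10 36.4-fold (19.7 to 76.1), Kcnn2 8.97-fold (4.26 to 22.7), Atp2b2 5.98-fold (4.42 to 8.28) and Chrna10 4.92-fold (4.03 to 6.06). None was called lower, where 9.76% of genes were. Chrna9 and Kcnma1, both under 20 CPM, had ratios of 1.25 (0.755 to 2.14) and 0.881 (0.343 to 2.53), so neither differed beyond counting error.

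For day 25 over day 5, 5 of the 6 genes were higher, beside 18.9% of 7117 genes. Kcnma1 was 20.8-fold higher (12.8 to 36.5), Chrna9 7.48-fold (5.88 to 9.67), Kcnn2 3.45-fold (2.94 to 4.07), Atp2b2 3.17-fold (2.93 to 3.43) and Kcna10 2.98-fold (2.78 to 3.18). Chrna10 was the exception at a ratio of 0.692 (0.650 to 0.737), which is lower on day 25 but short of 2-fold, so none was called lower, where 8.59% of genes were. The pair with flat early levels, Chrna9 and Kcnma1, thus had the largest late ratios. For day 25 over expansion all 6 were higher, beside 29% of 7333 genes, between 3.40-fold for Chrna10 (2.80 to 4.17) and 108-fold for Kcna10 (58.8 to 226), and 12.4% of genes were called lower. These comparisons share libraries and are not independent of each other.

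The order of the days was the same for all 6 genes without the shallow profiles of at most 4% mitochondrial UMIs. In the Pou4f3-positive cells over 4%, Chrna9 had 131 CPM on day 25 against 15.5 CPM on day 5, Kcnma1 had 89.8 against 4.44 CPM, and Kcnn2 had 149 against 43.0 CPM. Atp2b2 had 601 against 186 CPM and Kcna10 had 670 against 233 CPM. Chrna10 had 242 CPM (234 to 250) on day 25 and 347 CPM (328 to 367) on day 5, again the 1 gene lower on day 25.

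Both receptor subunits were counted in the same cells, so their ratio needs no scaling, although how well each RNA is captured sets its absolute value. There were 5 Chrna10 UMIs per Chrna9 UMI in expansion (3.11 to 8.41; 105 and 21 UMIs), 19.7 on day 5 (15.4 to 25.5; 1340 and 68 UMIs) and 1.82 on day 25 (1.73 to 1.92; 3903 and 2142 UMIs). The balance of subunit RNAs was thus most tilted to Chrna10 on day 5 and least on day 25, with no overlap of intervals. In cells over 4% mitochondrial it was 22.3 on day 5 (17.1 to 29.7) and 1.85 on day 25 (1.75 to 1.95). In the shallow cells at most 4% it was 7.42 on day 5 (4.04 to 14.9), which overlaps the expansion interval, and 1.57 on day 25 (1.30 to 1.90). Within day 5 it was 8 in cells with 2 Pou4f3 UMIs (3.42 to 22.9), 9.36 with 3 to 4 (5.02 to 19.3) and 23.3 with 5 or more (17.6 to 31.5). The day 5 intervals were thus apart between the mitochondrial groups and overlapped among the groups by Pou4f3 UMIs. In each of these day 5 groups the interval lay above that of day 25. The part of depth in these differences was not tested.

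**Figure D2:**
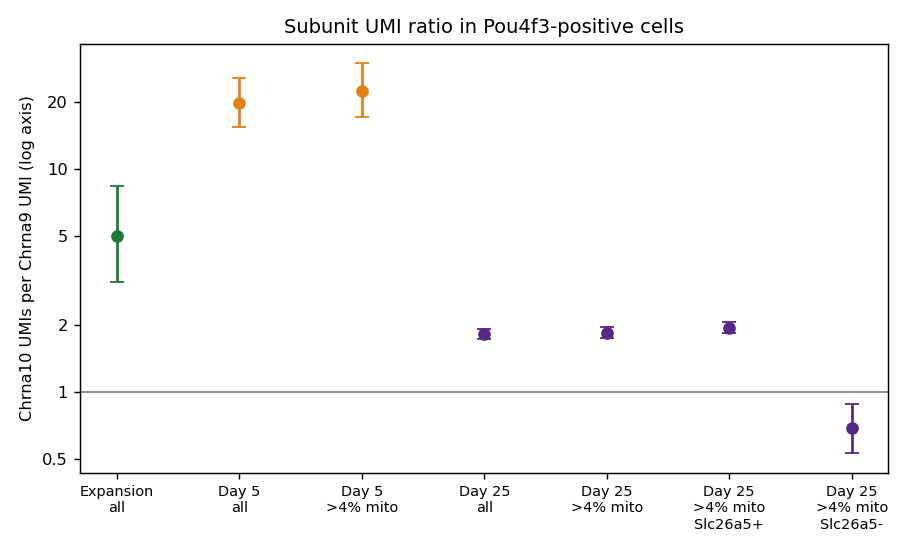
Chrna10 UMIs per Chrna9 UMI (log axis) in Pou4f3-positive cells of each library, and in groups of them by mitochondrial share and by Slc26a5, where points are ratios of summed UMIs and bars 95% counting intervals. The ratio was 19.7 on day 5 and 1.82 on day 25, and below 1 in the day 25 cells over 4% mitochondrial without Slc26a5 (0.688).

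The share of cells with a UMI was compared after every cell was thinned to 2000 UMIs. This left out 4 of the 167, 50 of the 329 and 43 of the 1538 Pou4f3-positive cells, which were shallower. Chrna10 was then seen in 12.3% of Pou4f3-positive cells in expansion (7.66% to 18.3%), in 38.0% on day 5 (32.3% to 44.0%) and in 28.3% on day 25 (26.0% to 30.7%). Chrna9 was seen in 3.68%, 3.58% and 17.8%. The shares follow the levels: Chrna10 was seen in fewer cells on day 25 than on day 5, and Chrna9 in more. In cells over 4% mitochondrial, Chrna10 was seen in 36.5% on day 25 (33.4% to 39.7%) and 46.9% on day 5 (39.3% to 54.5%), and these intervals overlap.

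Kcna10 was seen in 0.613%, 30.8% and 71.2% of the thinned Pou4f3-positive cells, and Atp2b2 in 6.75%, 24.7% and 50.4%. In expansion Kcnn2 was seen in 0 of 163 cells, which allows a share of up to 1.84%. On day 5 it was seen in 5.73% and on day 25 in 18.7%. Kcnma1 was seen in 0 of 163 cells in expansion, in 0 of 279 on day 5, which allows up to 1.08%, and in 11.2% on day 25. On day 25 Kcna10 was therefore the gene seen in the most cells and Kcnma1 in the fewest. Without thinning, Kcnn2 was seen in 3.59%, 28.6% and 54.8% of the cells.

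Mesenchymal cells, which should lack hair cell RNAs, served as background, at median depths of 6339.5, 6702 and 7730 UMIs. On day 25, thinned alike, 0 of 232 of them had a UMI of Chrna9 or Chrna10, which allows up to 1.29%. There 1.72% had Kcnn2, 2.16% Kcnma1, 1.29% Kcna10 and 0.431% Atp2b2. The Pou4f3-positive interval lay above the mesenchymal one for 3 genes in expansion, 5 on day 5 and all 6 on day 25. Kcnma1 was the gene left out on day 5. Mesenchymal cells had more of it than Pou4f3-positive cells there (5.70 against 3.72 CPM) and in expansion (10.2 against 4.22 CPM). They are therefore no background of free RNA for Kcnma1. Their day 25 level of Kcnn2 was 4.28% (2.13% to 7.65%) of that in Pou4f3-positive cells. This interval lies above that of Kcna10 (0.483% to 1.63%) and overlaps that of Chrna10 (0.257% to 2.42%). Whether mesenchymal cells are a background for Kcnn2 was not tested.

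The members differed in how they followed the amount of Pou4f3. On day 25 the cells with 1 Pou4f3 UMI, just outside the threshold, had 135 CPM of Kcna10, 63.8 CPM of Atp2b2, 35.8 CPM of Chrna10, 22.2 CPM of Chrna9, 15.2 CPM of Kcnn2 and 11.1 CPM of Kcnma1. Those with 2, just inside, had 563, 275, 136, 64.3, 60.5 and 46.1 CPM. Cells with 5 or more had 657 CPM of Kcna10, 547 of Atp2b2, 227 of Chrna10, 126 of Chrna9, 139 of Kcnn2 and 81.7 of Kcnma1. Kcna10 was thus near its full level from 2 Pou4f3 UMIs on, seen in 71.9%, 72.3% and 70.7% of thinned cells with 2, 3 to 4, and 5 or more, while Atp2b2 was seen in 23.8%, 35.8% and 59.2% of them. Median depth moved along (3634.5, 5123 and 12035 UMIs), as did the median mitochondrial share (1.85%, 1.95% and 9.88%), and their part in the result was not tested.

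**Figure D3:**
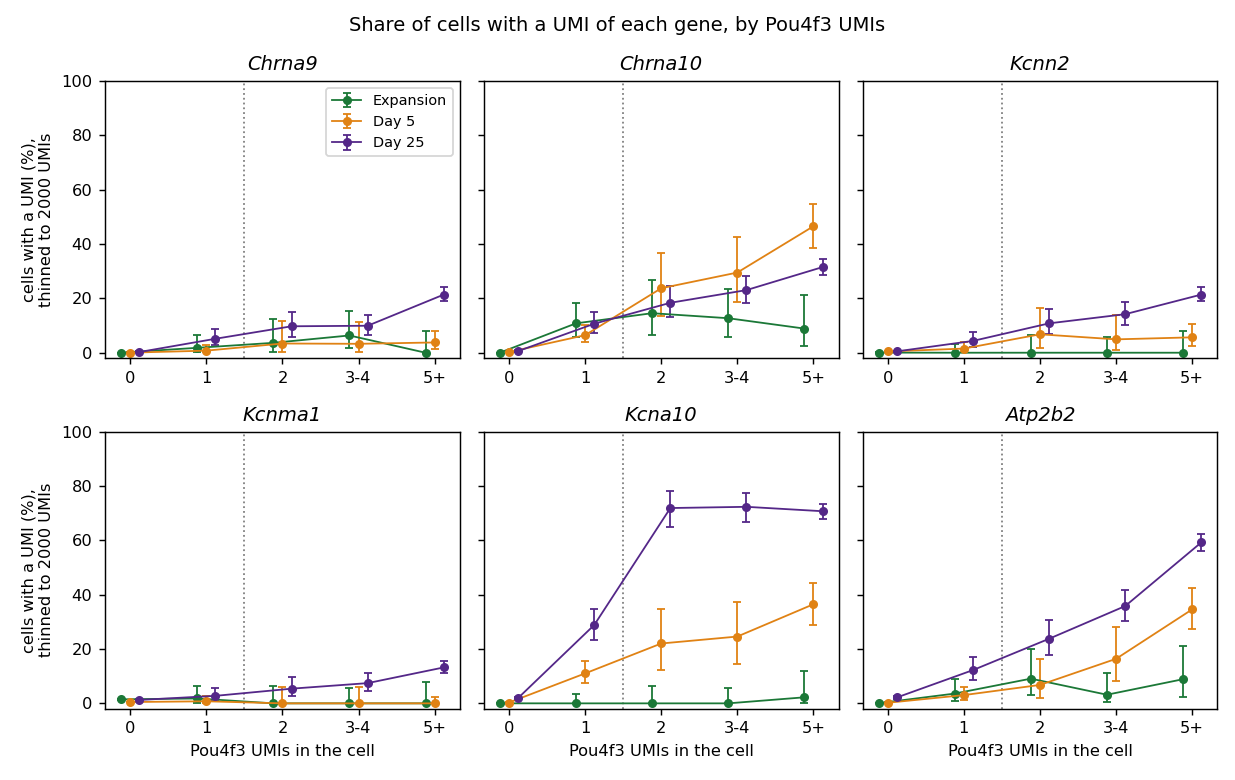
Share of cells (percent, each cell thinned to 2000 UMIs) with a UMI of each gene, by the number of Pou4f3 UMIs in the cell, for the 3 libraries; bars are Clopper-Pearson 95% intervals and the dotted line marks the threshold of 2. On day 25 Kcna10 is level from 2 UMIs on at 70.7% to 72.3%, and Atp2b2 goes on to 59.2%.

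The 2 kinds of day 25 Pou4f3-positive profile differed in these genes. The 590 cells with at most 4% mitochondrial UMIs had 106 CPM of Atp2b2, against 601 CPM (589 to 614) in the 948 cells over 4%, a ratio of 0.177 (0.158 to 0.197). Kcnma1 had 18.4 against 89.8 CPM, Kcnn2 45.9 against 149 CPM, Chrna10 89.0 against 242 CPM and Chrna9 56.7 against 131 CPM. Kcna10 was close in both kinds at 572 CPM (546 to 599) against 670 CPM (657 to 683), a ratio of 0.853. Other hair cell genes moved either way: Ocm, a calcium buffer of outer hair cells, had 4803 against 2382 CPM and Slc26a5 102 against 438 CPM. Pou4f3 had 952 against 776 CPM, but the cells were chosen by its UMIs and differ in depth, so this difference is not read.

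On day 5 the 149 cells with at most 4% had 41.6 CPM of Atp2b2 against 186 CPM in the 180 cells over 4%. They had 128 against 347 CPM of Chrna10, 11.5 against 43.0 CPM of Kcnn2 and 148 against 233 CPM of Kcna10. Chrna9 had 17.2 against 15.5 CPM, with overlapping intervals. Atp2b2 thus showed a large gap between the kinds on both days, and Kcna10 a smaller one on both.

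Outer and inner hair cells are known to use some of these genes unequally, and Slc26a5 (prestin, the motor protein of outer hair cells) was used to part the day 25 cells. In the 1084 cells with a Slc26a5 UMI, Atp2b2 had 583 CPM, against 115 CPM in the 454 without, a ratio of 5.07 (4.53 to 5.70). The ratios were 4.29 for Kcnma1 (3.27 to 5.74), 3.60 for Kcnn2, 2.57 for Chrna10, 1.40 for Kcna10 and 1.33 for Chrna9 (1.16 to 1.52). The mitochondrial share moved with this split, with medians of 10.3% in Slc26a5-positive and 1.37% in Slc26a5-negative cells, as did depth, at 11470.5 against 4368.5 UMIs.

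Among cells over 4% mitochondrial, 883 had a Slc26a5 UMI and 65 had none, at median depths of 12674 and 9652 UMIs. Here Chrna9 turned direction, with 128 CPM (122 to 134) in Slc26a5-positive cells against 193 CPM (164 to 226) in Slc26a5-negative cells, a ratio of 0.663 (0.562 to 0.787). Chrna10 had 248 against 133 CPM, a ratio of 1.87 (1.54 to 2.29). The other ratios were 2.50 for Kcnn2, 2.55 for Kcnma1, 2.18 for Kcna10 and 2.73 for Atp2b2, all higher in Slc26a5-positive cells. The count of Chrna10 UMIs per Chrna9 UMI was 1.94 (1.84 to 2.06) in the Slc26a5-positive cells and 0.688 (0.532 to 0.887) in the Slc26a5-negative cells.

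The 65 cells also differed in other markers. Fgf8 and Tbx2, genes known from inner hair cells, had 5.09 and 3.89 CPM in the 883 Slc26a5-positive cells against 149 and 46.3 CPM in the 65 Slc26a5-negative cells, and Ocm had 2485 against 560 CPM. Slc17a8, a vesicular glutamate transporter gene of inner hair cells, went the other way, with 251 against 125 CPM, a ratio of 2.01 (1.65 to 2.47). Gfi1 and Otof, listed here as general hair cell genes, were close, with 127 against 115 CPM and 314 against 343 CPM. Parted by Slc17a8 instead, the cells over 4% gave a ratio of Slc17a8-positive over Slc17a8-negative cells of 0.968 for Chrna9 (0.865 to 1.08), whose interval includes 1. The ratio was 1.12 for Chrna10 (1.03 to 1.23), 1.12 for Atp2b2 (1.06 to 1.18), 1.17 for Kcna10 (1.11 to 1.24), 1.35 for Kcnn2 (1.20 to 1.53) and 1.37 for Kcnma1 (1.18 to 1.60). In all day 25 cells, parted in the same way, it was 1.39 for Chrna9, 1.53 for Chrna10, 1.80 for Atp2b2, 1.19 for Kcna10, 2.03 for Kcnn2 and 1.99 for Kcnma1.

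**Figure D4:**
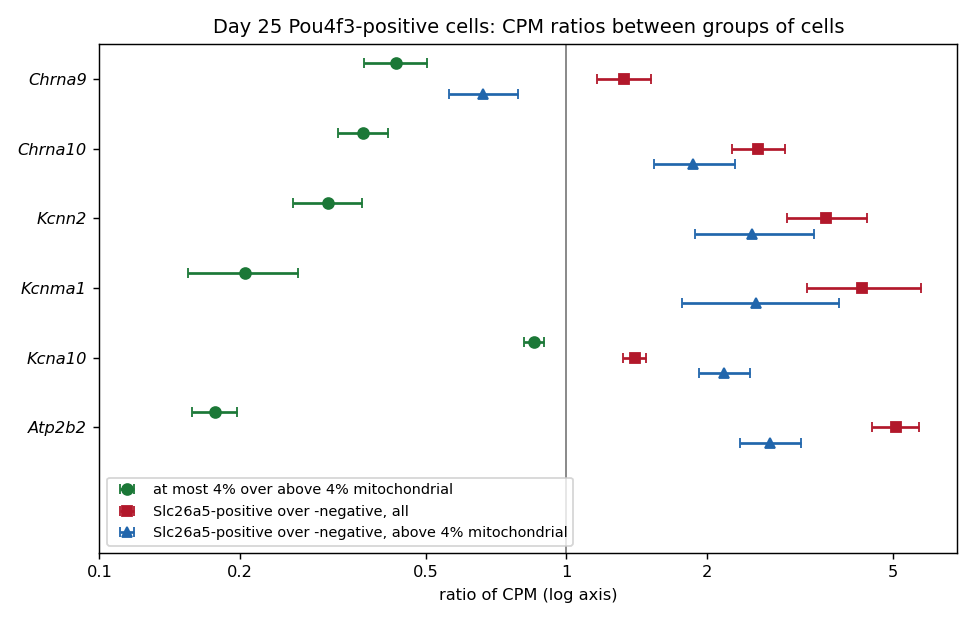
Ratio of CPM (log axis) of each gene between groups of day 25 Pou4f3-positive cells: at most 4% over above 4% mitochondrial (green circles), Slc26a5-positive over Slc26a5-negative in all cells (red squares) and in cells above 4% mitochondrial (blue triangles); bars are 95% counting intervals. Chrna9 lies at 1.33 in all cells and at 0.663 in cells above 4%, the 1 gene that crosses 1.

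The genes were also read together in single cells. Of the 1495 day 25 Pou4f3-positive cells thinned to 2000 UMIs, 9.16% had a UMI of none of the 6 genes, 30.4% of 1, 26.8% of 2, 22.9% of 3 and 8.70% of 4, and 1 cell had all 6. On day 5, 33.3% had none, and in expansion 78.5%. Chrna10 was seen in 38.3% of day 25 cells with Chrna9 (32.5% to 44.5%), against 26.1% of those without it (23.7% to 28.7%). Kcnn2 was seen in 31.1% of cells with Kcnma1 (24.2% to 38.8%), against 17.2% of those without it (15.2% to 19.3%). Of the 15 pairs, 14 had the larger share where the partner was seen, and 6 had intervals that did not overlap.

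Much of this moved with the mitochondrial share. In the 942 thinned cells over 4%, 9 of the 15 pairs had the larger share with the partner and 0 had intervals apart. The pair Chrna9 and Chrna10 then stood at 42.5% with Chrna9 (35.9% to 49.2%) against 34.6% without it (31.2% to 38.2%), and Kcnn2 with Kcnma1 at 34.0% against 23.5%. Atp2b2 was seen in 63.8% of all cells with Chrna10 against 45.1% of those without, and in 74.1% against 70.9% of the cells over 4%.

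**Figure D5:**
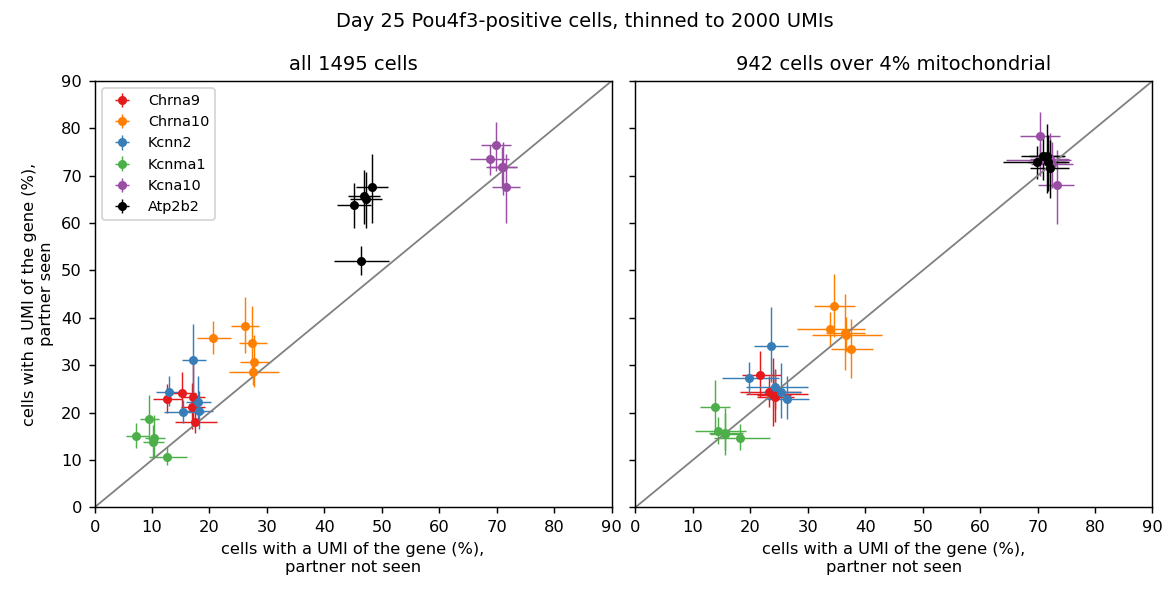
Share of day 25 Pou4f3-positive cells (percent, thinned to 2000 UMIs) with a UMI of a gene where a partner gene was seen (vertical) against where it was not (horizontal), 1 point per gene and partner coloured by the gene, in all 1495 cells (left) and in the 942 over 4% mitochondrial (right); bars are Clopper-Pearson 95% intervals and the line is equality. The Atp2b2 points lie above the line at left, at 63.8% against 45.1% with Chrna10, and on it at right, at 74.1% against 70.9%.

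The genes most like each of the 6 were ranked by Pearson's r of log2(1 + UMIs per 10000) over the same 1495 cells, among 9561 genes, which share 1 library and vary in depth. For Atp2b2 they were Akap9 (0.822), Nrxn3 (0.776), Cacna1d (0.770), Ptprq (0.769) and Dst (0.768). The same 5 genes led for Chrna10, up to 0.568, and for Kcnn2, up to 0.572, and Akap9, Nrxn3 and Cacna1d were among the 5 for Kcnma1 (up to 0.475). In cells over 4% mitochondrial the values were lower and most of these genes changed, with 0.576 for Pla2g7 and 0.491 for Akap9 beside Atp2b2. Of the 5 genes, 2 stayed for Atp2b2, 1 each for Chrna10 and Kcnn2, and 0 for Kcnma1. Atp2b2, Kcnn2 and Chrna10 themselves had r of 0.601, 0.445 and 0.440 with log2 depth over the 1495 cells. In cells over 4% those values were 0.0255, 0.0862 and 0.108. The part of depth in the rankings was not tested. For Kcna10, Aqp11 led at 0.307 and at 0.350 in cells over 4%, followed by Lce6a, Tmem229a, Slc26a5 and Hsd17b7, and 4 of its 5 genes were shared between both rankings. For Chrna9 Jmjd1c led at 0.422 and at 0.258, and it was the 1 gene of the 5 that both rankings shared.

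Genes around the receptor were read as lists. Of 14 other nicotinic receptor subunits, Chrnb2 alone reached 20 CPM in any comparison of Pou4f3-positive with other cells. It had 7.24, 24.4 and 20.9 CPM in Pou4f3-positive cells, against 0.214, 0.251 and 0.552 CPM in other cells, and was 97.3-fold higher on day 5 and 37.9-fold on day 25. Chrna1 followed in Pou4f3-positive cells with 4.97 CPM on day 25, and Chrna7 had 0.276 CPM. Of 13 genes of receptor assembly and the cholinergic synapse, 4 were compared on day 25. In Pou4f3-positive cells 2 were higher and 2 lower, beside 19.7% and 18.6% of all genes compared. Ric3, a chaperone of nicotinic receptors, was 8.42-fold higher (47.4 against 5.63 CPM), and Ly6h 2.93-fold. Agrn, which clusters receptors at the neuromuscular junction, was lower at 11.7 against 61.1 CPM, as was Ly6e.

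Ly6h, a modulator of nicotinic receptors, was highest on day 5, as Chrna10 was. It stood at 354, 744 and 128 CPM in Pou4f3-positive cells, against 4.54, 39.2 and 43.8 CPM in other cells, and on day 25 it was called lower than on day 5 and than in expansion (log2 ratios of CPM + 1 of -2.53 and -1.46), which Chrna10 was not.

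Of the 14 partners of the SK and BK channels, 4 were compared on day 25. Of these, 3 were higher in Pou4f3-positive cells, beside 19.7% of all genes compared. Among them was Kcnmb2, a beta subunit of the BK channel. Kcnmb2 had 26.6, 35.8 and 94.9 CPM against 0.144, 0.165 and 1.03 CPM in other cells. It was thus present in Pou4f3-positive cells in expansion and on day 5, where Kcnma1 was at 4.22 and 3.72 CPM. Calm2, which codes for calmodulin, the calcium sensor of SK channels, was higher too, with 921, 3480 and 4747 CPM, against 445, 366 and 685 CPM in other cells. Of the other SK genes, Kcnn1 had 2.71 CPM and Kcnn3 0.110 CPM on day 25.

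Of 19 other potassium and HCN channel genes, 6 were compared on day 25. In Pou4f3-positive cells 4 were higher and 1 lower, beside 19.7% and 18.6% of all genes compared. Kcnab1, a beta subunit of voltage-gated channels, had 14.5, 2.56 and 110 CPM in Pou4f3-positive cells, against 0.758, 0.737 and 3.97 CPM in other cells. Kcna2 had 35.0, 0.697 and 72.0 CPM against 57.0, 1.92 and 4.43 CPM. Both were thus low on day 5 and high on day 25 in Pou4f3-positive cells, as Kcnma1 was.

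Of 11 genes of calcium entry, 7 were compared on day 25. Of these, 6 were higher in Pou4f3-positive cells and Itpr1 was lower, beside 19.7% and 18.6% of all genes compared. Cacna1d, the calcium channel of hair cell synapses, had 48.9, 252 and 396 CPM against 6.43, 7.01 and 21.0 CPM. Ryr1 and Ryr2, ryanodine receptor genes whose channels release stored calcium, had their top levels on day 25. Ryr1 had 0.603, 0 and 30.2 CPM and Ryr2 6.64, 13.5 and 45.4 CPM in Pou4f3-positive cells. Ryr2 was already 95.6-fold (38.8 to 231) above other cells in expansion, from 11 UMIs, and 90.5-fold (53.1 to 161) on day 5. Cabp2 stood at 0, 18.1 and 43.9 CPM.

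Of 12 calcium pumps, exchangers and buffers, 9 were compared on day 25, where 4 were higher and 2 lower in Pou4f3-positive cells, beside 19.7% and 18.6% of all genes compared. The 4 higher genes were buffers (Calb1, Calb2, Ocm and Pvalb). Atp2b1, the PMCA1 pump of most cells, had 359, 693 and 839 CPM in Pou4f3-positive cells against 309, 410 and 574 CPM in other cells, short of 2-fold at each stage. The 2 lower genes were Atp2b4, at 4.58 against 25.3 CPM, and Bsg, at 717 against 1629 CPM. Of the pump genes compared on day 25 (Atp2b1, Atp2b2, Atp2b4 and Atp2a2), Atp2b2 alone was called higher in Pou4f3-positive cells. Atp2b3 was too low to be compared, with 5.47 CPM in Pou4f3-positive against 0.0552 CPM in other cells on day 25. Its ratio was 99.1 (32.9 to 489). Ocm had 0, 68.6 and 2804 CPM and Pvalb 446, 947 and 255 CPM, so Ocm had its top level on day 25 and Pvalb on day 5.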

How the data were processed

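The deposited matrices hold raw UMI counts, which the authors produced with Cell Ranger 3.0.1 (expansion, day 5) and 3.1.0 (day 25) per the file headers; the annotation release is not given in the sources used here. The submitters' processing notes name GRCm38 beside hg38, and the gene table is mouse. The 29098, 14452 and 6613 barcodes held 207026905, 140255047 and 76296949 UMIs. Barcodes under 500 genes, over 20% mitochondrial UMIs or called doublets by Scrublet in scanpy 1.11.5 were left out. Doublet calls were 6.30%, 4.69% and 2.44%, against an expected 22.4%, 11.1% and 5.01%, so doublets remain, and 26232, 13200 and 6111 cells were kept.

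UMIs were summed over the cells of a class and scaled to CPM over all genes, with mitochondrially encoded genes left out of the counts of called genes. Named beside the 6 genes are the 5 most correlated with each, among genes seen in at least 5% of cells. Called genes of the lists are named too, up to 4 per direction. The other genes (Chrna1, Chrna7, Kcnn1, Kcnn3, Atp2b1, Atp2b3, Cabp2) were chosen after their values were seen. Members and lists were chosen with earlier results of these data known, and the 4% mitochondrial split after seeing that share. Alternatives were TMM and median-of-ratios scaling (edgeR 4.0.16), other thresholds on Pou4f3, level, pseudocount and depth, and kept doublets. Calls were also tried on simulated data, with settings and outcome not reported here. A protein comparison was not run, and Kcnn2 sequence and some genes of the lists are not reported here. Intervals and floors (3 UMIs or cells) cover counting error only.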

Additional observations from a re-analysis of the deposited data

How the results depend on the processing

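No paired analysis was possible because each stage is 1 library. Of the counts, 338 alternative values stayed within 1.5 times and 25 did not; of the other values, 371 moved by less than their error, 114 by more and 1 reversed. Of Pou4f3-positive against other cells in expansion (660 genes higher, 184 lower), 37 were lower with at least 1 Pou4f3 UMI, 310 with TMM, 287 with median-of-ratios scaling and 103 with a pseudocount of 5 CPM; 1052 were higher and 567 lower in cells thinned to 2000 UMIs. On day 5 (1363 and 1197), at least 1 Pou4f3 UMI gave 733 and 217. With at least 1 CPM and no minimum of UMIs, higher and lower genes were 1668 and 806 in expansion, where all 6 members were then compared. On day 5 those counts were 2334 and 2860, and on day 25 they were 2719 and 2870. Between stages they were then 2347 and 1888 (day 5 over expansion, main 1103 and 654), 2347 and 1439 (day 25 over day 5, main 1345 and 611), and 3616 and 2280 (day 25 over expansion, main 2124 and 912). Pairs with intervals apart were 11 when thinned to 4000 UMIs and 0 in cells over 4% mitochondrial, where 9 pairs had the larger share with the partner. There the thinned Chrna9 share in Slc26a5-positive minus Slc26a5-negative cells was -4.15 points, against 11.7 in all cells. The cause was not tested, except that a lower minimum adds genes. Scaling moved the median of all genes by -0.18 to -0.02 (log2). Depth limits Kcnn2, Kcnma1 and Kcna10 in expansion, with 7 to 10 UMIs.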
